A study of Rattus norvegicus with 29 samples.

Results

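Plasma miRNAs were compared between injured UEF rats that later had epilepsy and injured UEF rats that did not. The study profiled tail vein plasma of adult male Sprague-Dawley rats, drawn 48 h after surgery at UEF (University of Eastern Finland), Monash and UCLA. Traumatic brain injury (TBI) was a severe lateral fluid percussion injury, in which a pulse of fluid strikes the exposed dura. Sham rats were operated on but received no fluid pulse. Epilepsy was read from video-EEG in month 7 after injury. TBI+ rats (TBIE in the labels) had epilepsy and TBI− rats (TBIN) did not, so both groups carried the same injury and were told apart by an outcome scored months after the blood was drawn. The members were chosen by label alone: all 4 UEF TBI+ and all 4 UEF TBI− rats, 8 of the 29 rats, with every one of the 754 miRNAs in the count table. Each rat gave 1 library. The labels name individual rats but do not say whether any shared a litter or a processing day.

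miRNAs are short RNAs that guide Argonaute proteins to messenger RNAs, mostly by pairing of the seed near their 5′ end, and so lower the output of those messengers. In plasma they circulate bound to proteins or inside vesicles, and their tissue of origin is read from miRNAs that few cell types make: miR-122 from hepatocytes, miR-451 and miR-486 from red cells, miR-1, miR-133 and miR-206 from muscle, miR-124 and miR-9 from neurons. A lower plasma level from fewer releasing cells and one from less miRNA released per cell cannot be told apart in such samples.

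The sequences of some of the miRNAs described below are given first. RefSeq (GRCr8) held a mature sequence for 664 of the 745 miRNAs tested and for 42 of the 48 miRNAs named by the selection rule. miR-30b-3p, miR-3593-5p, miR-124-3p, miR-30d-5p, miR-486 and the joined entry miR-133a-3p/133b-3p were the others. The first set holds miRNAs with the lowest p between TBI+ and TBI− rats, including those whose groups did not overlap. All are written 5′ to 3′, with the seed (bases 2 to 8) in capitals.
miR-208a-5p: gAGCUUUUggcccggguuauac
miR-32-5p: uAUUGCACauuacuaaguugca
miR-29b-5p: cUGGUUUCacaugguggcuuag
miR-138-1-3p: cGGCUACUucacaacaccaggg
miR-708-5p: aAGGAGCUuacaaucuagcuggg
miR-7a-2-3p: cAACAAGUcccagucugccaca
miR-31a-5p: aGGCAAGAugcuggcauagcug
miR-203b-3p: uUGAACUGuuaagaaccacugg
miR-203b-5p: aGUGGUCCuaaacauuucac
miR-204-5p: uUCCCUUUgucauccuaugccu
No seed was shared within this set. The second set holds miRNAs that the study followed by PCR, together with miR-92a-3p, which carries the seed of miR-32-5p. Of these, miR-212-3p and miR-132-3p share one seed.
miR-434-3p: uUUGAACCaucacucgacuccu
miR-183-5p: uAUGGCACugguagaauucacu
miR-323-3p: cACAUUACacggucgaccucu
miR-9a-3p: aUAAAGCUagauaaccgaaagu
miR-132-3p: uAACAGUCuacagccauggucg
miR-212-3p: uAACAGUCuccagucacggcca
miR-92a-3p: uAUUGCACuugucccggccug
The third set holds miRNAs whose TBI+ to TBI− difference was not the same at UEF as at the other sites.
miR-337-3p: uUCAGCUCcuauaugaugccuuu
miR-673-3p: uCCGGGACugaguucugugcac
miR-708-3p: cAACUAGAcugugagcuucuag

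Libraries of the 8 rats held 1638451 to 4669149 miRNA counts, and 708 miRNAs reached 10 counts in each of them. Total counts averaged 2898947 ± 896549 (SD, n = 4) in TBI+ and 3281362 ± 1230272 (n = 4) in TBI− rats (two-sided exact permutation p = 0.629). Detected miRNAs (10 or more counts) numbered 736.25 ± 3.50 and 739.75 ± 7.68 (exact p = 0.486). The log2 ratio of miR-451-5p to miR-23a-3p, which rises when red cells lyse, was −2.34 ± 0.79 in TBI+ and −1.84 ± 0.66 in TBI− rats (exact p = 0.343). The difference in this ratio, −0.50, became −0.17 without TBI− rat 2, whose ratio of −0.87 was the highest of all 29 rats. Adjusted over these 3 tests each exact p was 0.629, and 4 against 4 rats cannot give less than 0.0286. By PCR of miR-23a and miR-451 the paper found no red cell lysis in the plasma samples sent for sequencing. Its absorbance readings of the pooled UEF plasma in that set stayed within the limit it had fixed. The Spearman correlation of log2 CPM (the count scaled to the TMM-adjusted library total) averaged 0.931 over the 6 pairs of TBI+ rats, 0.924 over the 6 pairs of TBI− rats and 0.933 over the 16 mixed pairs. The mean of the mixed pairs was not below that of either group.

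No miRNA separated TBI+ from TBI− rats past the threshold. Of 745 miRNAs tested, 0 (0%) passed an adjusted p of 0.05 in edgeR's quasi-likelihood test, where the lowest adjusted p was 0.999, and 0 passed in DESeq2, where it was 0.508. At an unadjusted p below 0.05 there were 14 in edgeR (1.88%), 2 higher (0.268%) and 12 lower (1.61%) in TBI+, and 29 in DESeq2 (3.89%). Both shares, 1.88% and 3.89%, were below the 0.05 that this threshold passes when no miRNA differs. The direction of the edgeR split depended on scaling and on single rats. With counts scaled to miR-28-3p, the reference miRNA of the study, 6 were higher and 1 lower. With library totals alone 1 was higher and 2 lower. On the TMM scale 17 were higher and 13 lower without TBI− rat 1, and 10 higher and 5 lower without TBI− rat 2. Without TBI+ rat 3 there were 4 of each, and without any other rat more were lower than higher. The median log2 fold change of all miRNAs was −0.06 after TMM, 0.24 after scaling to miR-28-3p and 0.11 with library totals alone. All fold changes below are TBI+ minus TBI− on the TMM scale unless another contrast is named.

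The precision limited what could be seen. The median absolute log2 fold change was 0.21 against a median standard error of 0.36, and the 95% confidence interval reached a median of 0.78 to either side. For 358 of the 745 miRNAs (48.1%) the interval lay within 1 log2 unit of 0, so that a larger change was outside it. Among the 399 miRNAs with a mean of at least 100 counts this held for 213. For the remaining miRNAs a 2-fold difference in at least one direction lay inside the interval. 15 miRNAs had an estimate beyond 1 log2 unit, from −2.16 for miR-31a-5p to 1.46.

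**Figure D1:**
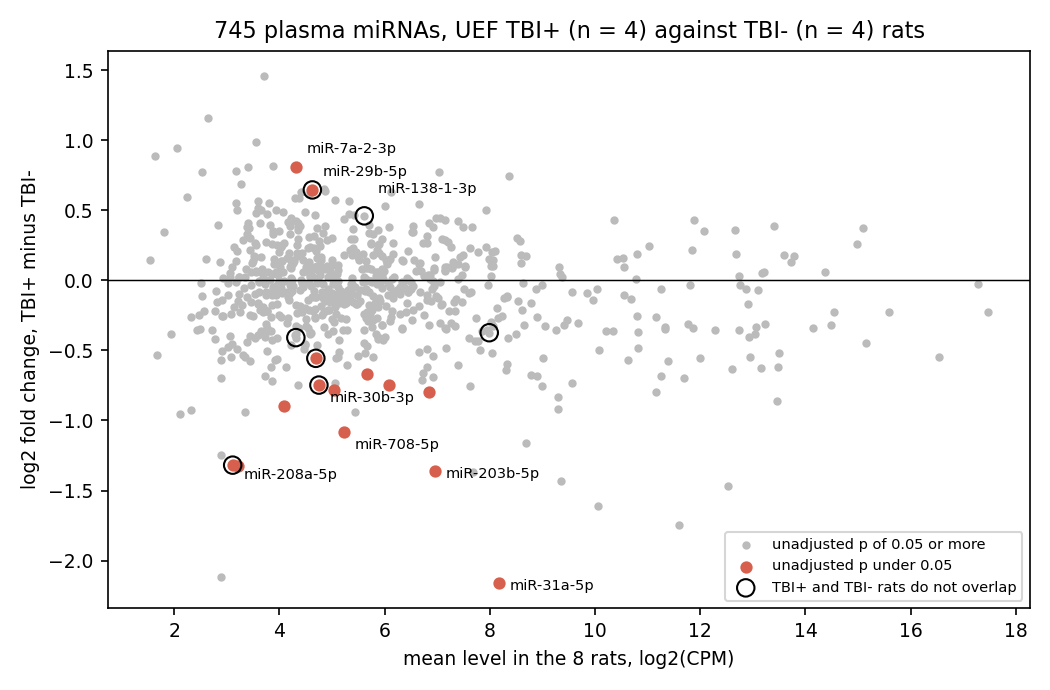
Each point is 1 of 745 miRNAs, with the mean level in the 8 rats (log2 CPM) on the x axis and the log2 fold change, TBI+ minus TBI−, on the y axis. Red points are the 14 miRNAs with an unadjusted p below 0.05, and circles mark the 7 whose rats did not overlap between groups. 12 of the red points lie below 0.

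In 7 miRNAs (0.940%) every rat of one group lay above every rat of the other, 2 with TBI+ above (0.268%) and 5 with TBI− above (0.671%). Over the 70 regroupings of 4 against 4 rats, a miRNA without a difference would be apart with a probability of 0.0286. The share seen was below that, so these miRNAs are described and not taken as leads. The clearest was miR-30b-3p, the passenger arm of a hairpin whose main product, miR-30b-5p, is widely expressed. It stood at 18.7, 20.7, 18.8 and 22.2 CPM in the TBI+ rats and at 31.1, 31.1, 31.1 and 41.6 CPM in the TBI− rats. The TBI+ values lay close together and below all TBI− values, with TBI− rat 4 apart from its group. The log2 fold change was −0.75 (SE 0.23, 95% interval −1.25 to −0.24), a level 1.68-fold higher in TBI−, at an edgeR adjusted p of 0.999. Sham rats, on the scale of the 12 UEF rats, spanned 9.24 to 38.0 CPM, a range that overlapped both injured groups.

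miR-208a-5p, encoded in a heart myosin gene, was at 5.77, 4.88, 2.39 and 6.77 CPM in TBI+ and at 7.34, 14.2, 17.0 and 10.9 CPM in TBI− rats. Its groups were apart by a small margin, and its mean of 26 counts per library made it one of the sparser miRNAs tested. The log2 fold change was −1.32 (SE 0.45, interval −2.30 to −0.34, edgeR adjusted p = 0.999). miR-208b-5p, which has the same seed and comes from the neighbouring myosin gene, had 0.06 (SE 0.42).

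miR-32-5p stood at 18.7, 23.8, 18.1 and 22.9 CPM in TBI+ and at 29.8, 39.4, 26.5 and 27.5 CPM in TBI− rats. Its log2 fold change was −0.56 (SE 0.25, edgeR adjusted p = 0.999), and the groups did not overlap. The 4 other miRNAs with its seed, members of the miR-25 and miR-92 family, had −0.34 (miR-25-3p), −0.14 (miR-92b-3p), 0.06 (miR-92a-3p) and 0.08 (miR-363-3p). Each of these 4 had an interval that included 0. miR-92a-3p was the most abundant of them, at 21542 ± 5442 CPM (SD, n = 4) in TBI+ and 20624 ± 917 CPM in TBI− rats.

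Both miRNAs with TBI+ above TBI− were minor arms of their hairpins. miR-29b-5p, the partner of miR-29b-3p, a repressor of collagen genes, was at 21.6, 37.3, 35.2 and 26.3 CPM in TBI+ and at 19.0, 21.4, 19.4 and 17.2 CPM in TBI− rats. The lowest TBI+ rat exceeded the highest TBI− rat by less than 1 CPM. Its log2 fold change was 0.65 (SE 0.26, interval 0.08 to 1.21, edgeR adjusted p = 0.999). miR-138-1-3p, partner of the neuronal miR-138-5p, was at 52.2, 66.4, 49.6 and 58.7 CPM in TBI+ and at 39.7, 43.9, 41.0 and 40.1 CPM in TBI− rats. Its log2 fold change was 0.46 (SE 0.21, interval −0.01 to 0.93), just short of an unadjusted p of 0.05.

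The other 2 miRNAs without overlap were smaller in size of difference. miR-672-3p averaged 17.1 ± 1.21 CPM (SD, n = 4) in TBI+ and 22.7 ± 5.46 CPM in TBI− rats, and its log2 fold change was −0.41 (SE 0.26). miR-3588 averaged 221 ± 12.2 and 287 ± 47.4 CPM, and its log2 fold change was −0.37 (SE 0.28). Without TMM, on library totals alone, 4 of 745 miRNAs (0.537%) did not overlap.

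**Figure D2:**
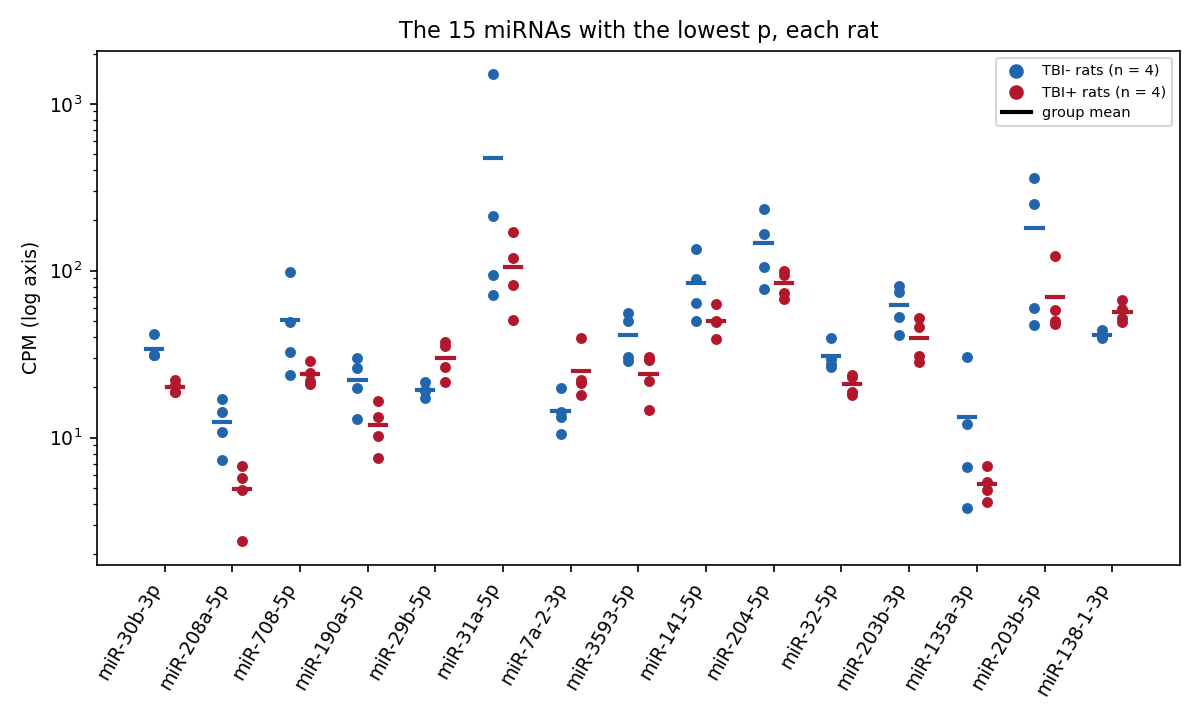
CPM on a log axis of the 15 miRNAs with the lowest p, from left to right in order of p, with 1 point per rat (blue TBI−, red TBI+, n = 4 each) and bars at the group means. miR-30b-3p, miR-208a-5p, miR-29b-5p, miR-32-5p and miR-138-1-3p show no overlap, and in miR-31a-5p a single TBI− rat at 1506 CPM lifts the mean.

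Other miRNAs among the 15 with the lowest p overlapped between groups. miR-708-5p, an arm of a hairpin in the Odz4 (Tenm4) gene, had a log2 fold change of −1.08 (SE 0.40), with 21.1 to 28.7 CPM in TBI+ and 23.7 to 98.2 CPM in TBI− rats. miR-28-5p, which shares its seed, had 0.09 (SE 0.31). miR-7a-2-3p had 0.81 (SE 0.33), with a mean of 25.3 CPM in TBI+ and 14.5 CPM in TBI− rats. miR-190a-5p had −0.89 (SE 0.35) while miR-190b-5p, of the same seed, had −0.16 (SE 0.30). miR-204-5p, abundant in choroid plexus and retinal pigment epithelium, had −0.80 (SE 0.35), and miR-211-5p, of the same seed, had −0.12 (SE 0.28). miR-135a-3p had −1.33 (SE 0.60) and miR-3593-5p had −0.78 (SE 0.32). None passed adjustment. Without TBI− rat 2 the estimates of miR-708-5p and miR-204-5p shrank to −0.53 and −0.46, and without TBI− rat 3 that of miR-135a-3p was −0.49.

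The largest estimate belonged to miR-31a-5p, a miRNA of keratinocytes and other epithelia. It was at 119, 171, 82.1 and 50.4 CPM in TBI+ and at 94.5, 1506, 71.5 and 213 CPM in TBI− rats. One TBI− animal, rat 2, was far above all others, and the remaining values of the groups overlapped throughout. The log2 fold change was −2.16 (SE 0.87, interval −4.06 to −0.25) with all 8 rats and −0.27 without TBI− rat 2. miR-203b-5p, from the locus of miR-203, a miRNA of differentiating skin, was at 123, 58.3, 49.9 and 47.8 CPM in TBI+ and at 59.6, 360, 47.2 and 250 CPM in TBI− rats. TBI− rats 2 and 4 were high. Its log2 fold change was −1.36 (SE 0.61) with all rats and −0.79 without TBI− rat 2. miR-203b-3p lay at −0.67 (SE 0.30) and miR-141-5p, of the epithelial miR-200 family, at −0.75 (SE 0.32), which became −0.41 without TBI− rat 2.

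TBI− rats 2 and 4 held the highest summed levels of epithelial miRNAs. The 8 miRNAs of a list for epidermis (miR-31, miR-203 and miR-205, added after values were seen) were all lower in TBI+ by estimate, 3 at an unadjusted p below 0.05 and 0 after adjustment, with a median log2 fold change of −0.90. Over all 745 miRNAs tested 429 were lower by estimate, 14 (1.88%) had an unadjusted p below 0.05 and the median was −0.06. The summed level of the epidermis list was 39545 CPM in TBI− rat 2 and 29952 CPM in TBI− rat 4, against 5091 and 5817 CPM in the other TBI− rats and 3000 to 17389 CPM in TBI+ rats. As a share of counts the list was 2.45% in TBI− rat 2 and 2.62% in TBI− rat 4. The 9 members of the miR-200 family, which keep epithelial cells from a mesenchymal state, were likewise all lower in TBI+ by estimate, with a median of −0.69, 1 at an unadjusted p below 0.05 and 0 after adjustment. The miR-200 members summed to 6146 CPM in TBI− rat 2 and 4115 CPM in TBI− rat 4, against 1107 to 3102 CPM in the other 6 rats. Without TBI− rat 2 the medians were −0.60 for epidermis and −0.27 for the miR-200 family. With the log2 CPM of miR-205 as a covariate, added after seeing the data, 0 miRNAs passed adjustment, as in the fit without it.

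Among all lists examined, summed muscle miRNAs varied most between rats, from 1003 to 59907 CPM. Of 15 tested, 13 were lower and 2 higher in TBI+ by estimate, with a median of −0.55, 1 (miR-208a-5p) at an unadjusted p below 0.05 and 0 after adjustment. Over all 745 miRNAs tested 429 were lower and 14 (1.88%) had an unadjusted p below 0.05. miR-133a-3p/133b-3p, a joined entry of miRNAs that the table does not separate, was at 2096, 7549, 2446 and 424 CPM in TBI+ and at 660, 33179, 325 and 485 CPM in TBI− rats. TBI− rat 2 was the highest, TBI+ rat 2 the next. The log2 fold change turned from −1.47 (SE 1.34) with all rats to 2.70 without TBI− rat 2, and the median of the list from −0.55 to 0.36. The direction of the muscle list rested on 1 rat.

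Blood cell miRNAs made up a large share of every library. miR-16-5p, abundant in red cells, was at 93227 to 230863 CPM in TBI+ and at 112537 to 132442 CPM in 3 TBI− rats, with TBI− rat 2 at 413985 CPM. TMM factors ran from 0.619 in TBI− rat 2 to 1.62 in TBI+ rat 4, so CPM here are not shares of a library. As a share of counts miR-16-5p was 25.6% in TBI− rat 2 and 22.9% in TBI+ rat 3. By share, TBI− rat 2 stayed highest for red cell, muscle, pancreas, sensory cluster and miR-200 miRNAs. It was not highest for vessel (2.82%, TBI+ rat 1 3.21%) or neuron miRNAs (0.715%, TBI− rat 1 1.29%). miR-486 was at 157416 ± 52415 CPM (SD, n = 4) in TBI+ and 160278 ± 52111 CPM in TBI− rats, which left the log2 fold change at −0.03 (SE 0.37, interval −0.83 to 0.78). miR-451-5p was highest in TBI− rat 2 at 7793 CPM, with 664 to 3567 CPM in TBI+ rats. Of 7 red cell miRNAs 6 were lower in TBI+ by estimate, with a median of −0.23 that became 0.25 without TBI− rat 2, 0.10 when scaled to miR-28-3p and 0.06 with library totals alone. In the list of white cell and platelet miRNAs 5 of 6 were higher by estimate, with a median of 0.17. miR-223-3p, of neutrophils and platelets, led it with 39428 ± 17388 CPM in TBI+ and 30389 ± 14582 CPM in TBI− rats (log2 fold change 0.38, SE 0.44, and 0.09 without TBI+ rat 2). The part of red cell, muscle and epithelial miRNAs in the values of other miRNAs was not tested. Fits with a covariate called 0 miRNAs after adjustment, as did the fit without one, so these counts cannot show that part. Of the 14 miRNAs at an unadjusted edgeR p below 0.05, 4 stayed below it with the miR-451 to miR-23a-3p ratio as covariate. With miR-205 6 of them stayed, and with miR-1-3p 12. These fits had 11, 23 and 23 such miRNAs in all.

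**Figure D3:**
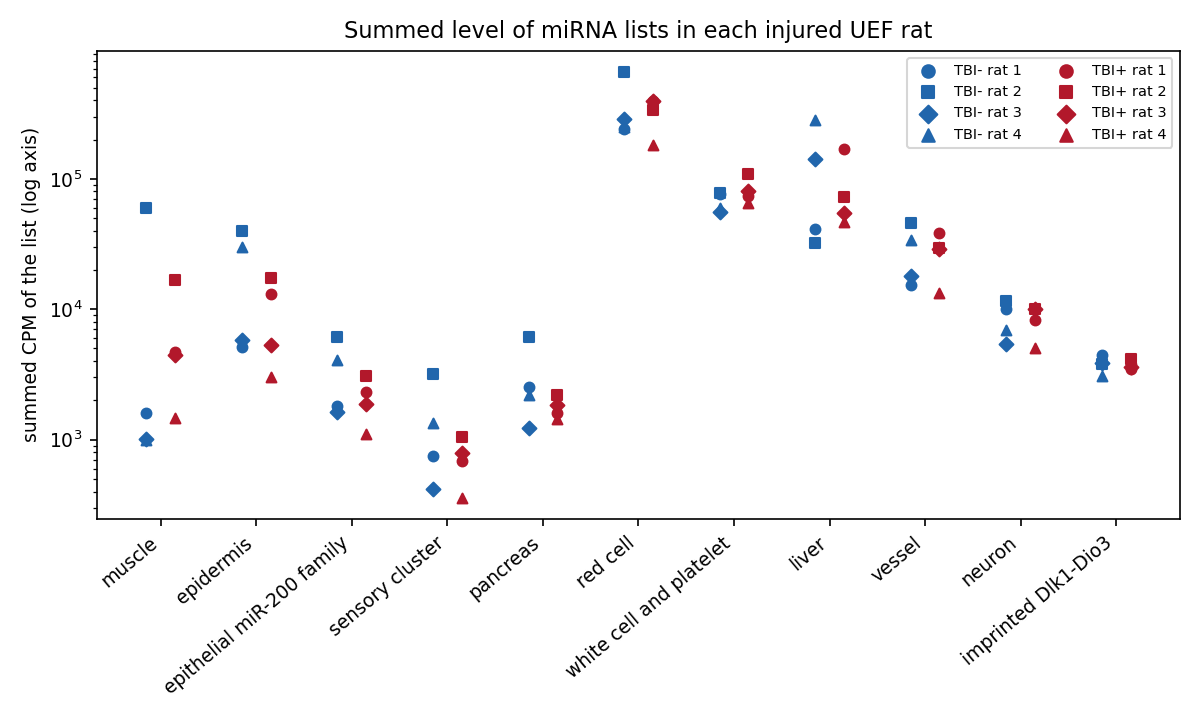
Summed CPM (log axis) of 11 miRNA lists in each of the 8 injured UEF rats, blue for TBI− and red for TBI+, with the marker shape giving the rat number. On this TMM scale TBI− rat 2 (blue square) is highest for muscle, epidermis, the miR-200 family, the sensory cluster, pancreas, red cells, vessel and neuron. The neuron sums span 5021 to 11550 CPM, with TBI− rat 2 at the top, and the Dlk1-Dio3 sums span 3059 to 4433 CPM.

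Liver miRNAs did not follow that rat. miR-122-5p was at 157489, 64850, 44691 and 43173 CPM in TBI+ and at 36477, 25520, 132806 and 258971 CPM in TBI− rats, so both groups held high and low rats. The log2 fold change was −0.55 (SE 0.69, interval −2.07 to 0.97) and 0.30 without TBI− rat 4. All 8 liver miRNAs were lower in TBI+ by estimate, with a median of −0.31, which became 0.17 without TBI− rat 4. Of 11 inflammation miRNAs 9 were higher by estimate, with a median of 0.18. miR-146a-5p, a brake on NF-κB signalling, was at 13138 ± 4346 CPM (SD, n = 4) in TBI+ and 11571 ± 2351 CPM in TBI− rats (log2 fold change 0.18, SE 0.36, and −0.04 without TBI+ rat 2). In the pancreas list miR-375-3p, of islet cells, had −0.80 (SE 0.50), which became −0.11 without TBI− rat 2. In the vessel list miR-143-3p, of smooth muscle, had 0.39 (SE 0.48), which became 0.05 without TBI+ rat 1. No member of these 4 lists passed adjustment.

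Brain-enriched miRNAs mostly overlapped between the outcomes, as did miRNAs at large, of which 7 of 745 (0.940%) did not overlap. Of 18 neuron miRNAs 12 were higher and 6 lower in TBI+ by estimate, with a median of 0.13, and 0 had an unadjusted p below 0.05. Of all 745 miRNAs 316 were higher and 429 lower, with a median of −0.06, and 14 (1.88%) had an unadjusted p below 0.05. Among the 18 neuron miRNAs miR-138-1-3p alone had groups without overlap. miR-128-3p, the most abundant, was at 7304 ± 2389 CPM (SD, n = 4) in TBI+ and 7613 ± 2767 CPM in TBI− rats (log2 fold change −0.06, SE 0.41). A list of 82 miRNAs from the imprinted Dlk1-Dio3 locus, expressed from the maternal chromosome and abundant in brain, was not complete for that locus. Of these 82, 46 were higher and 36 lower, with a median of 0.05, and in 0 of them the groups were apart. miR-134-5p, a dendritic regulator of spine size from that locus, had 0.38 (SE 0.34), and 0.08 without TBI+ rat 2. miR-219a-5p, which drives oligodendrocyte maturation, had −0.52 (SE 0.27), with 28.2 to 48.8 CPM in TBI+ and 38.0 to 71.5 CPM in TBI− rats, and its log2 fold change was −0.31 without TBI+ rat 4. None of these passed adjustment.

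The miRNAs that the study followed by PCR were chosen by the study in part on these sequencing libraries, so their values here are not wholly independent of that choice. miR-434-3p, from the imprinted locus, was at 226, 780, 373 and 300 CPM in TBI+ and at 391, 442, 210 and 338 CPM in TBI− rats. The groups overlapped, with TBI+ rat 2 the highest, and the log2 fold change of 0.28 (SE 0.43) became −0.18 without that rat. miR-183-5p, of the sensory cluster that also holds miR-96 and miR-182, was at 394, 697, 459 and 193 CPM in TBI+ and at 468, 1833, 248 and 750 CPM in TBI− rats. Its log2 fold change was −0.92 (SE 0.60, interval −2.22 to 0.38) and −0.16 without TBI− rat 2, the rat at 1833 CPM. miR-183-3p, the other arm of that hairpin, had 0.16 (SE 0.77), which ran from −0.66 without TBI+ rat 4 to 1.29 without TBI− rat 1.

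miR-323-3p, also imprinted, was at 37.5 to 97.1 CPM in TBI+ and at 45.7 to 68.6 CPM in TBI− rats, for an estimate of 0.26 (SE 0.31, interval −0.41 to 0.93) that became 0.04 without TBI+ rat 2. Neuronal miR-9a-3p had 0.29 (SE 0.27, interval −0.29 to 0.87). miR-124-3p, the most neuron-specific of the candidates, averaged 53.1 ± 8.67 CPM (SD, n = 4) and 53.2 ± 11.9 CPM, with an interval of −0.55 to 0.54. The activity-regulated miR-132-3p and miR-212-3p, cut from neighbouring hairpins and alike in seed, had 0.34 (SE 0.26) and −0.04 (SE 0.31), and 0.11 and 0.21 without TBI+ rat 2. The reference miR-28-3p averaged 431 ± 112 CPM in TBI+ and 517 ± 108 CPM in TBI− rats (log2 fold change −0.26, SE 0.34, and −0.06 without TBI+ rat 4). Each of these 7 candidates and the reference was at an edgeR adjusted p of 0.999.

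**Figure D4:**
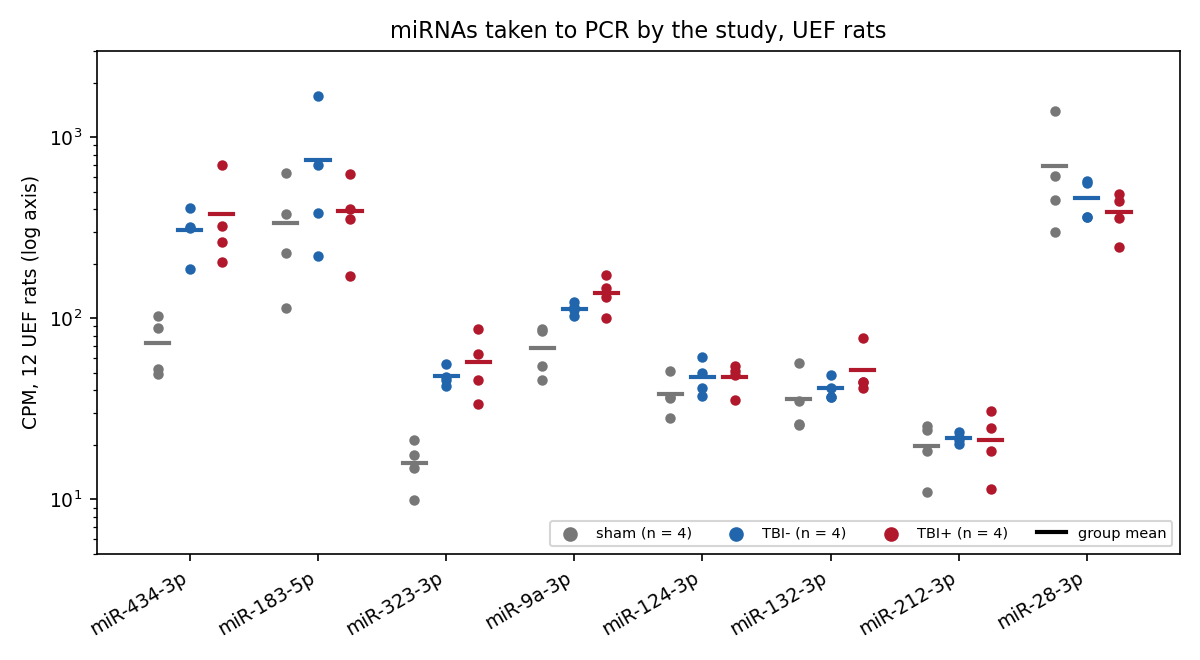
CPM on a log axis of 7 miRNAs followed by PCR and of the reference miR-28-3p in the 12 UEF rats (grey sham, blue TBI−, red TBI+, n = 4 each), with bars at the group means. For miR-434-3p and miR-323-3p both injured groups lie above all sham rats and overlap each other.

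Both injured groups were also set against UEF sham rats. In a fit of the 12 UEF rats, 8 of 749 miRNAs (1.07%) passed for TBI+ against sham, 5 higher (0.668%) and 3 lower (0.401%), and 0 (0%) for TBI− against sham, where 80 (10.7%) had an unadjusted p below 0.05 and DESeq2 called 14. The comparisons share the sham rats. miR-434-3p was at 49.0 to 102 CPM in sham, 187 to 408 CPM in TBI− and 203 to 704 CPM in TBI+ rats, and rose by 2.36 on the log2 scale in TBI+ (SE 0.46, edgeR adjusted p = 0.0165). In TBI− its estimate was 2.07 (SE 0.46, edgeR adjusted p = 0.126). miR-323-3p rose by 1.86 (SE 0.33, adjusted p = 0.0165) in TBI+, and had 1.58 (SE 0.33, adjusted p = 0.123) in TBI−. Passing the threshold in one group and not in the other did not show a difference between the outcomes, since the direct contrast called 0 miRNAs.

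The other 6 called miRNAs, are named after their values were seen. miR-129-5p, miR-409b and miR-138-1-3p rose in TBI+ by 1.78, 1.33 and 1.08, beside estimates of 1.21, 1.07 and 0.62 in TBI− (edgeR adjusted p in TBI+ of 0.0165, 0.0165 and 0.0487). miR-615, miR-101b-3p and miR-194-5p fell in TBI+, with log2 fold changes of −1.83, −2.72 and −2.95, beside −1.09, −2.34 and −2.65 in TBI− (adjusted p in TBI+ of 0.0165, 0.0452 and 0.0452). All 8 calls were lost without sham rat 2, without sham rat 3 or without TBI+ rat 2, and 16 miRNAs were called without sham rat 1. The sham libraries were rich in miR-122-5p, at 28.1% to 55.1% of counts against 1.58% to 22.6% in the injured rats, and the part of this in the calls was not tested.

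The outcome contrast was then set beside those of the other sites in a fit of the 19 injured rats. TBI+ and TBI− rats differed in 0 of 754 miRNAs (0%) at UEF, with 18 at an unadjusted p below 0.05 (2.39%), in 51 (6.76%) at UCLA, 8 of them higher in TBI+ (1.06%), and in 43 (5.70%) at Monash, 42 of them higher (5.57%), where the TBI+ group held 2 rats. The difference between sites was itself called for 20 miRNAs (2.65%) between UEF and UCLA, 16 of them with UEF the higher (2.12%), and for 13 (1.72%) between UEF and Monash, 0 with UEF the higher. At an unadjusted p below 0.05 there were 168 miRNAs (22.3%) at Monash. Without UCLA TBI− rat 3 the UEF to UCLA count was 13, without UEF TBI− rat 1 it was 40, and without Monash TBI+ rat 2 the UEF to Monash count was 7. Of the 14 UEF miRNAs at an unadjusted p below 0.05, 5 had the same sign at UCLA and 9 at Monash. Of all 754 miRNAs, 332 (44.0%) and 428 (56.8%) did. 1 of the 14 had the same sign at both, for which the share over all miRNAs was not computed.

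miR-337-3p, a miRNA of the imprinted Dlk1-Dio3 locus, had an outcome log2 fold change of 0.03 (SE 0.28) at UEF, −3.23 (SE 0.37) at UCLA and 3.25 (SE 0.39) at Monash. UEF minus UCLA was 3.26 (edgeR adjusted p = 0.000217) and UEF minus Monash was −3.22 (adjusted p = 0.0015). miR-673-3p had 0.07 at UEF, −3.49 at UCLA and 2.61 at Monash, and miR-708-3p had 0.07, −3.65 and 3.14. miR-667-3p and miR-1193-3p followed the same order. At UEF the estimates of these 5 lay between −0.14 and 0.16, while past adjustment all 5 were lower in TBI+ at UCLA and higher in TBI+ at Monash.

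Among the miRNAs with the lowest p at UEF, 3 differed between sites past adjustment, chosen here after these values were seen. miR-30b-3p had −0.75 at UEF, −0.19 at UCLA and 1.92 at Monash, and UEF minus Monash was −2.67 (SE 0.54, edgeR adjusted p = 0.0127). miR-190a-5p had −0.91 at UEF, 1.76 at UCLA and −0.86 at Monash, and UEF minus UCLA was −2.67 (SE 0.68, adjusted p = 0.0371). miR-32-5p had −0.55 at UEF, 1.06 at UCLA and −0.94 at Monash, and UEF minus UCLA was −1.61 (SE 0.38, adjusted p = 0.0189). miR-29b-5p had 0.63 at UEF, −0.39 at UCLA and 0.80 at Monash, with no difference past the threshold.

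Part of the site contrasts ran along a split of the libraries that the labels do not name. On a scale common to the 29 rats, miR-337-3p was at 6.47 to 10.8 CPM in the 9 libraries of UCLA TBI+, Monash TBI− and Monash sham rats and at 36.1 to 110 CPM in the other 20, with 44.4 to 85.9 CPM in UEF TBI+ and 41.9 to 73.8 CPM in UEF TBI− rats. Of 737 miRNAs compared, 21 lay wholly lower in those 9 libraries and 0 wholly higher. The 3 groups were picked out after their values were seen, so no test was made. They fill columns 15 to 23 of the deposited table, without a gap. Of the 20 miRNAs called for UEF against UCLA 8 were among the 21, and of the 13 called for UEF against Monash 11 were. At UCLA and Monash this split and the outcome cannot be told apart. All 12 UEF libraries lay on one side of it, so the UEF contrast did not cross it.

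**Figure D5:**
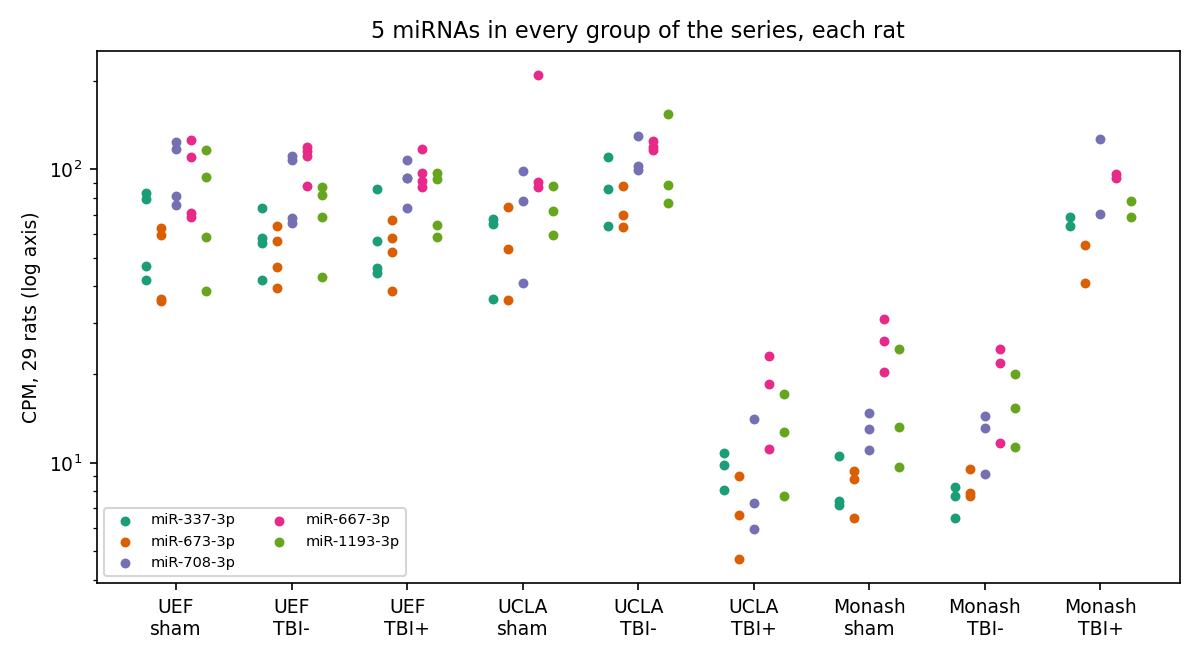
CPM on a log axis of 5 miRNAs in each of the 29 rats, by site and group, with 1 colour per miRNA. UCLA TBI+, Monash sham and Monash TBI− rats lie below every other group for all 5 miRNAs, and UEF TBI+ and TBI− rats overlap.

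The 2 arms of a hairpin, both cut from 1 transcript, gave a further look at the UEF contrast. Arms were paired here by name, so a miRNA that comes from more than 1 hairpin was counted as 1 pair. For 269 such pairs with both arms tested, the log2 fold changes of the arms had the same sign in 146 (54.3%). Pearson r across the pairs was 0.27, a description over points from the same 8 libraries. miR-30b-3p (−0.75) had a partner arm of the same sign, miR-30b-5p at −0.59. miR-29b-5p (0.65) had a partner of the other sign, miR-29b-3p at −0.06. miR-29b-1-5p, another 5p arm of miR-29b, was not in a pair and was lower in TBI+ by estimate. The miR-30 list, of 11 miRNAs, had a median of −0.41, which became 0.07 without TBI− rat 2, and the miR-29 list, of 7, had a median of −0.06, which became 0.25 when scaled to miR-28-3p and 0.17 with library totals alone.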

How the data were processed

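RNA was extracted from 200 µl of plasma per rat, prepared with the QIASeq miRNA kit and sequenced as 75-bp single-end reads. Per the labels and the methods, the authors used cutadapt for trimming and Bowtie for mapping to Rnor_6.0, and deposited raw counts of 754 miRNAs. 7 entries join several miRNAs. Whether reads of one molecule were merged is not given in the sources used here.

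Counts were tested with edgeR 4.0.16 (R 4.3.3; limma 3.58.1): filterByExpr with a minimum count of 10, TMM, quasi-likelihood F test, Benjamini-Hochberg adjustment over all miRNAs tested and a threshold of 0.05. The UEF contrast used its 8 rats, without covariates; the sham contrasts used 12 rats and the site contrasts 19. CPM were computed within each fit. DESeq2 1.42.0 was an alternative. SE is the absolute log2 fold change over the square root of F, and intervals are at 95%. The lowest chi-square per degree of freedom between UEF libraries was 90.4 over 66 pairs, so no library was counted as a duplicate. The code was tested on simulated data. P-values measure the spread between these rats, and depth and intervals cover miRNA counts only.

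Members and lists were chosen with earlier results of these data known. Named miRNAs were those the study measured by PCR and its reference miRNAs, the 15 with the lowest p, the largest changes without overlap, the most abundant and every nominal member of each list, the 5 lowest p of each site difference and the 5 most abundant overall. Alternatives were other scalings, filters, covariates, samples, thinning, a replicate block and leaving out each rat. Figures used Python 3.11.15 and matplotlib 3.10.9.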

Additional observations from a re-analysis of the deposited data

Results flagged for a closer look

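In groups of 4 rats, 8 of 102 sets of values had 1 rat far from the other 3 by Dixon's criterion, where chance gives about 1 in 20, here 5.1. TBI− rat 2 accounted for 4: miR-16-5p at 413985 CPM, miR-133a-3p/133b-3p at 33179 CPM, miR-451-5p at 7793 CPM and miR-31a-5p at 1506 CPM. The next highest TBI− rats were at 132442, 660, 1949 and 213 CPM. The others were miR-183-3p in TBI− rat 1 (44.5 CPM), miR-30b-3p in TBI− rat 4 (41.6 CPM), miR-132-3p in TBI+ rat 2 (85.6 CPM) and miR-203b-5p in TBI+ rat 1 (123 CPM).

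The outcome contrast differed between UEF and another site by an interaction test for these miRNAs. For UEF minus UCLA the log2 difference was 3.56 for miR-673-3p, 3.73 for miR-708-3p, 3.26 for miR-337-3p, 2.68 for miR-667-3p and 3.31 for miR-1193-3p. For UEF minus Monash it was −3.22 for miR-337-3p, −3.06 for miR-708-3p, −2.53 for miR-673-3p, −2.54 for miR-667-3p and −2.67 for miR-30b-3p. All 5 UEF minus UCLA miRNAs are among the 21 that were lower in the 9 libraries of UCLA TBI+, Monash TBI− and Monash sham rats.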

How the results depend on the processing

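The count of miRNAs past adjustment between UEF TBI+ and TBI− rats was 0 under all 26 alternatives run, DESeq2 and each rat left out included, and the count at an unadjusted p below 0.05 ran from 2 to 30. Groups without overlap numbered 4 of 745 (0.537%) with library totals alone. With at least 100 counts in each rat they numbered 1 of the 309 miRNAs that passed that filter (0.324%). The replicate number as a block gave 0 miRNAs past adjustment and 5 at an unadjusted p below 0.05. Deviations of same-numbered rats had correlations of −0.44, 0.41, −0.27 and −0.31, and 1 of 4 numbers matched best with itself. These 4 values cannot show whether same-numbered rats shared a litter or a processing day.

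Against sham, TBI+ gave 37 miRNAs with DESeq2, 5 with DESeq2 size factors, 5 with the replicate block and 0 to 16 with 1 rat left out (4 without TBI+ rat 3, 5 without TBI+ rat 1, TBI+ rat 4 or TBI− rat 3). TBI− gave 14 with DESeq2 and 0 to 2 with 1 rat left out (2 without sham rat 1 or TBI+ rat 2). DESeq2 gave 97 at UCLA, 104 at Monash, 61 for UEF minus UCLA and 42 for UEF minus Monash. With 1 rat left out these 4 counts ran from 22 to 72, 18 to 59, 13 to 40 and 7 to 27. The rats whose removal moved a count by over 1.5 times were, for UCLA, TBI− rat 3 (22), TBI+ rat 1 (28) and TBI+ rat 2 (30); for Monash, TBI+ rat 2 (18); for UEF minus UCLA, UCLA TBI− rat 3 (13), UCLA TBI+ rat 3 (33) and UEF TBI− rat 1 (40); and for UEF minus Monash, UEF TBI+ rat 3 (7), Monash TBI+ rat 2 (7), UEF TBI− rat 2 (23) and Monash TBI+ rat 1 (27). Without either Monash TBI+ rat the lone rat left is assumed to vary like the other groups. The site differences could not be recomputed without the 9 low libraries, which hold all UCLA TBI+ and all Monash TBI− rats.

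The difference in total counts, TBI+ minus TBI−, ran from −873585 to 80180 with 1 rat left out, and was 80180 without TBI− rat 2 and 37750 without TBI+ rat 4. The difference in detected miRNAs was 2.5 at 100 or more counts and 14.25 after thinning to the lowest total. The cause of these changes was not tested. Depth limits the sparse miRNAs most: 355 of the 754 in the table had a mean below 100 counts in the 8 rats, and together they held 0.576% of counts.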
